A study of Mus musculus with 12 samples.

Results

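The tricarboxylic acid cycle enzymes described here were 9 genes, Cs, Idh3a, Idh3b, Idh3g, Ogdh, Dlst, Sucla2, Suclg1 and Mdh2, followed by every probe set annotated with one of these symbols alone. They were 9 of 18193 genes on the array and had 24 of its 45037 probe sets, of which 21 passed a filter on low signal, with at least 1 for each gene. Whole hearts of CD1 mice were compared between 4 groups of 3 arrays: wild-type (WT) adults of 42 days, DN-MCU adults of 42 days, WT neonates of 1 day and DN-MCU neonates of 1 day. DN-MCU mice carried a dominant negative construct of MCU, the pore subunit of the mitochondrial calcium uniporter, and WT mice were their littermates. The adults were labelled male, no sex was given for the neonates, and the labels do not name the promoter that drives the construct. Each array is labelled as a separate biological replicate, and values are log2 signals of Affymetrix 3′ arrays hybridized with cRNA from 500 ng of total RNA.

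The cycle runs in the mitochondrial matrix and oxidizes the acetyl group of acetyl-CoA to carbon dioxide, and the NADH it makes feeds the respiratory chain. In heart muscle, which contracts without pause, it carries most of the oxidation of fatty acids and glucose. Matrix calcium raises the activity of isocitrate dehydrogenase (subunits Idh3a, Idh3b and Idh3g) and of 2-oxoglutarate dehydrogenase (Ogdh), which gives the uniporter a route to the cycle. Citrate synthase (Cs), dihydrolipoamide succinyltransferase (Dlst), succinyl-CoA ligase (Sucla2, Suclg1) and malate dehydrogenase (Mdh2) are not known for such a direct response. The comparison between genotypes in this series bears on the amount of their mRNA, not on enzyme activity.

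Ogdh and Dlst encode the first and the second component of one enzyme complex and were both higher in WT adults than in WT neonates. They were also the 2 members with a match to a motif searched, and their promoter windows with that match are shown. RefSeq windows of GRCm38.p6, 250 bases before to 50 after a gene start, were found for 8 of the 9 members. Both windows below are on the plus strand, and capitals mark the only motif match found in each.
Ogdh, chr11:6291920-6292219: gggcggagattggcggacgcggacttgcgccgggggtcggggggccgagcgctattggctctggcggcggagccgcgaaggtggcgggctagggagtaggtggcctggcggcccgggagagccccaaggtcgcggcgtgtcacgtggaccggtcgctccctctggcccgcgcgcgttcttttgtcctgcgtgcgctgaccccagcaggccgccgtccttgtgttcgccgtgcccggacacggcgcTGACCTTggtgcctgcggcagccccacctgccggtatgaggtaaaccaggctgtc
Dlst, chr12:85110583-85110882: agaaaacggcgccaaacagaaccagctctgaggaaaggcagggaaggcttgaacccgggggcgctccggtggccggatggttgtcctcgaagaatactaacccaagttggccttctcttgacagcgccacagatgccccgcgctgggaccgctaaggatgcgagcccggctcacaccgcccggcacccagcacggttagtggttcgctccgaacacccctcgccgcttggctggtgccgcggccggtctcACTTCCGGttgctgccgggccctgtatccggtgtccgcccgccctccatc
The Ogdh capitals are AAGGTCA, a half-site bound by nuclear receptors, read on the opposite strand, and this was 1 of 6 windows of Ogdh. AAGGTCA, searched on both strands, was in 4.72% of all 32851 windows of this length. The Dlst capitals are CCGGAAGT, a site of ETS family factors, also read on the opposite strand, and it was in 3.89% of all windows. Each of these motifs was in 1 of the 13 member windows. The longer form TNAAGGTCA, which contains the first motif, was in 1.28% of windows and the palindromic NRF1 site in 0.971%, and none of the 13 member windows held either. These matches describe letters in a window and are not evidence of binding.

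Mcu checked the labels: its probe set 1442031_at read 8.85, 9.64 and 10.41 in DN-MCU adults against 2.45 to 4.55 in WT adults, and 8.44 to 9.28 in DN-MCU neonates against 2.90 to 3.31 in WT neonates, while 1453166_at lay between 7.39 and 8.18 on all 12 arrays. All 10 cardiomyocyte markers were above the filter level (log2 3.35) on every array, with means of 15.10 to 15.32 in adults and 14.69 to 14.84 in neonates. Of the 8 adipocyte markers 6 were measured, and their mean was 6.72 to 9.25 in adults against 4.90 to 5.19 in neonates. Adipoq was at background in neonates (group means 2.18 and 2.28) and at 10.64 and 10.24 in adults, Lep was at background at both ages, and Fabp4, which endothelial cells also express, was not lower in neonates (14.57 and 14.69 against 14.38 and 13.67). The 6 leukocyte markers averaged 8.08 to 9.06 in adults and 5.91 to 6.42 in neonates. The 3 brown adipocyte markers averaged 5.45 to 8.30 in adults, lowest on DN-MCU adult 3, and 4.91 to 5.03 in neonates. Of them Ucp1 was at background in neonates (2.23 and 2.14 against 8.26 and 7.65), and Elovl3 was at background at both ages. The 8 epicardial and mesothelial markers went the other way, at 4.49 to 6.37 in adults and 6.16 to 7.70 in neonates. Array DN-MCU adult 3 stood apart from the other 11 arrays (121.4 on the second principal component, others from -50.89 to 24.42), with WT adult 1 the next at 24.42. The part of cell makeup in the results below was not tested, and in whole hearts fewer cells of a type and less RNA per cell cannot be told apart.

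In adult hearts none of the 9 cycle enzymes passed the test between DN-MCU and WT, although each point estimate was lower in DN-MCU. With limma over all 12 arrays and Benjamini-Hochberg adjustment over all probe sets, 0 of 9 had an adjusted p under 0.05. Of all genes, 5.11% did. An unadjusted p under 0.05 was found for 2 of 9 (Dlst and Suclg1) and for 2302 of all 11807 genes. The log2 differences ran from -0.47 (Sucla2) to -0.08 (Cs), with a median of -0.26 against 0.00 over all genes. Groups did not overlap for 4 of the 9 (Idh3b, Dlst, Suclg1 and Mdh2), each lower in DN-MCU, where 18.4% of all genes had no overlap and 8.14% were without overlap and lower. Without array DN-MCU adult 3 the median was -0.14, Sucla2 was at 0.03, and Dlst fell (-0.56, adjusted p = 0.0319), in a fit in which 5.34% of all genes were lower.

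**Figure D1:**
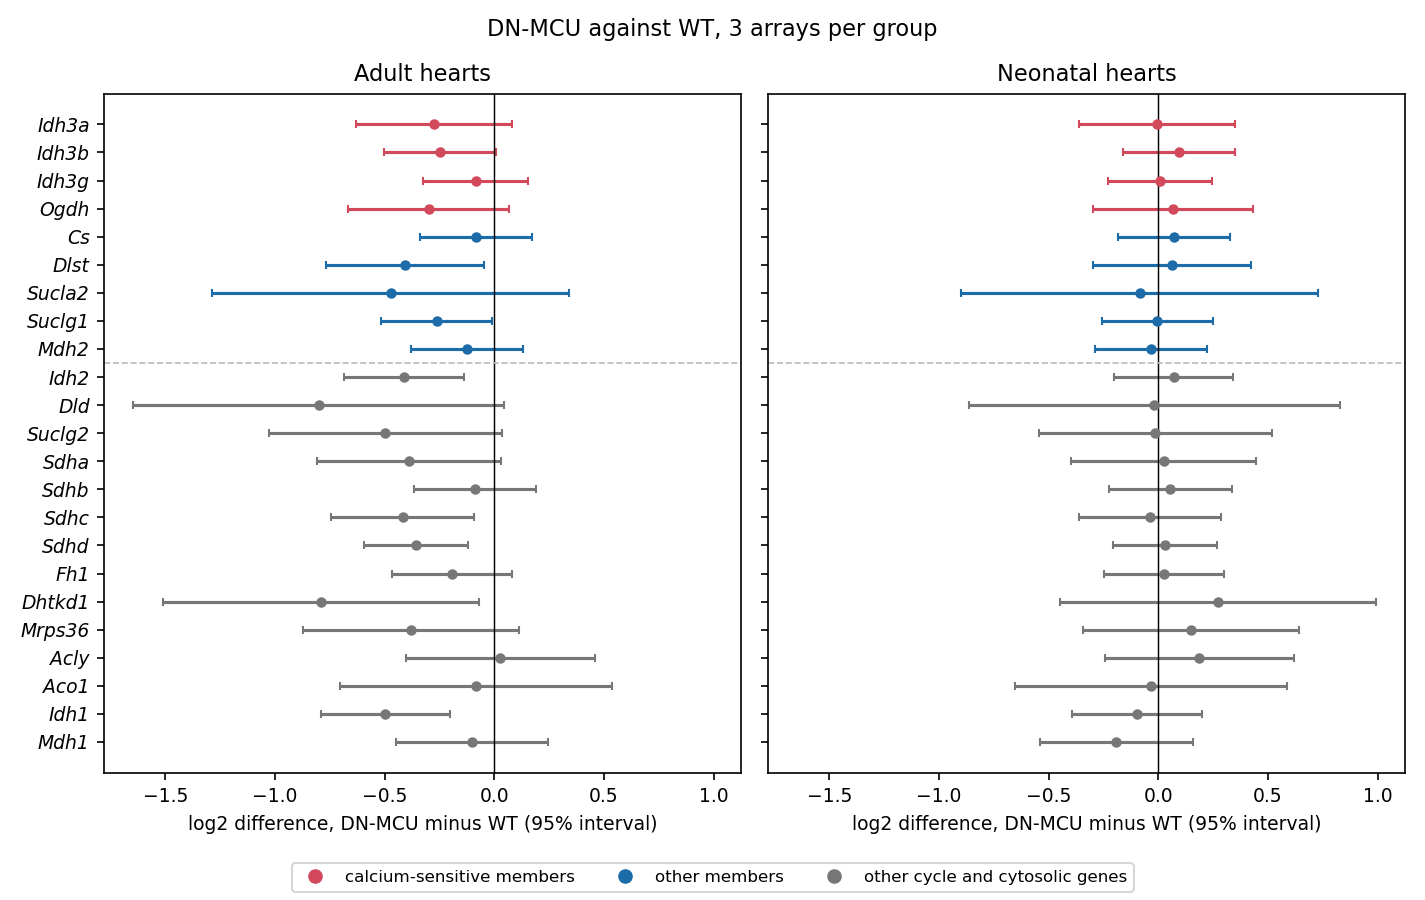
Log2 difference between DN-MCU and WT hearts, 3 arrays per group, in adults (left) and neonates (right), for the brightest probe set of each gene, with 95% intervals of the limma fit as bars. The 9 members above the dashed line lie between -0.47 and -0.08 in adults and between -0.09 and 0.09 in neonates, and the other 14 genes of the pathway are below it.

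Entry into the cycle was measured by Cs, which joins acetyl-CoA to oxaloacetate. Its brightest probe set read 14.91, 14.88 and 14.84 in WT adults and 14.65, 14.81 and 14.91 in DN-MCU adults. The groups overlapped, and the difference was -0.08 (SE 0.12, 95% interval -0.34 to 0.17, adjusted p = 0.774). A second probe set, 1422578_at, did separate the groups, at 14.25, 14.28 and 14.25 in WT against 13.82, 13.91 and 14.07 in DN-MCU. It also did not pass (-0.33, adjusted p = 0.159). The third, 1422577_at, separated the groups too and did not pass (-0.18, adjusted p = 0.495).

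Isocitrate dehydrogenase of the cycle has a catalytic alpha subunit and the partner subunits beta and gamma. Idh3a read 14.15, 14.23 and 14.12 in WT adults and 14.003, 14.14 and 13.53 in DN-MCU adults. Array DN-MCU adult 3 was the low one, and the difference of -0.27 (SE 0.16, adjusted p = 0.425) became -0.09 without it. Idh3b read 13.33, 13.51 and 13.45 in WT and 13.26, 13.22 and 13.06 in DN-MCU. These groups did not overlap, with a difference of -0.25 (SE 0.11, 95% interval -0.50 to 0.01, adjusted p = 0.287). Idh3g, the subunit encoded on the X chromosome, read 13.97, 14.12 and 14.01 against 13.90, 13.96 and 13.99. Its groups overlapped, and the interval of its difference was -0.32 to 0.15.

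The probe sets of the Idh3 subunits did not all point the same way. For Idh3a, 1422501_s_at read 12.11, 11.98 and 11.78 in WT and 11.42, 11.56 and 11.72 in DN-MCU adults, without overlap (-0.39, adjusted p = 0.213). The third probe set of Idh3a, 1422500_at, gave -0.49 (adjusted p = 0.126), the smallest adjusted p among the 21 member probe sets in adults. Idh3b had 1 probe set of opposite direction. Probe set 1418885_a_at read 10.51, 9.97 and 10.21 in WT and 11.17, 10.78 and 10.32 in DN-MCU, with overlap. Its difference was 0.53 (SE 0.21, adjusted p = 0.208). The third Idh3b probe set, 1441271_at, was lower without overlap (-0.48, adjusted p = 0.19). The second Idh3g probe set, 1416788_a_at, was at 0.06 with overlap (adjusted p = 0.867). Over all 21 probe sets 0 passed (4.77% of all probe sets did), 18 were below 0, 3 above 0, and 7 had an unadjusted p under 0.05. Over all genes, each by its brightest probe set, 2302 of 11807 had an unadjusted p under 0.05. No source used here says which transcripts each probe set reads.

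**Figure D2:**
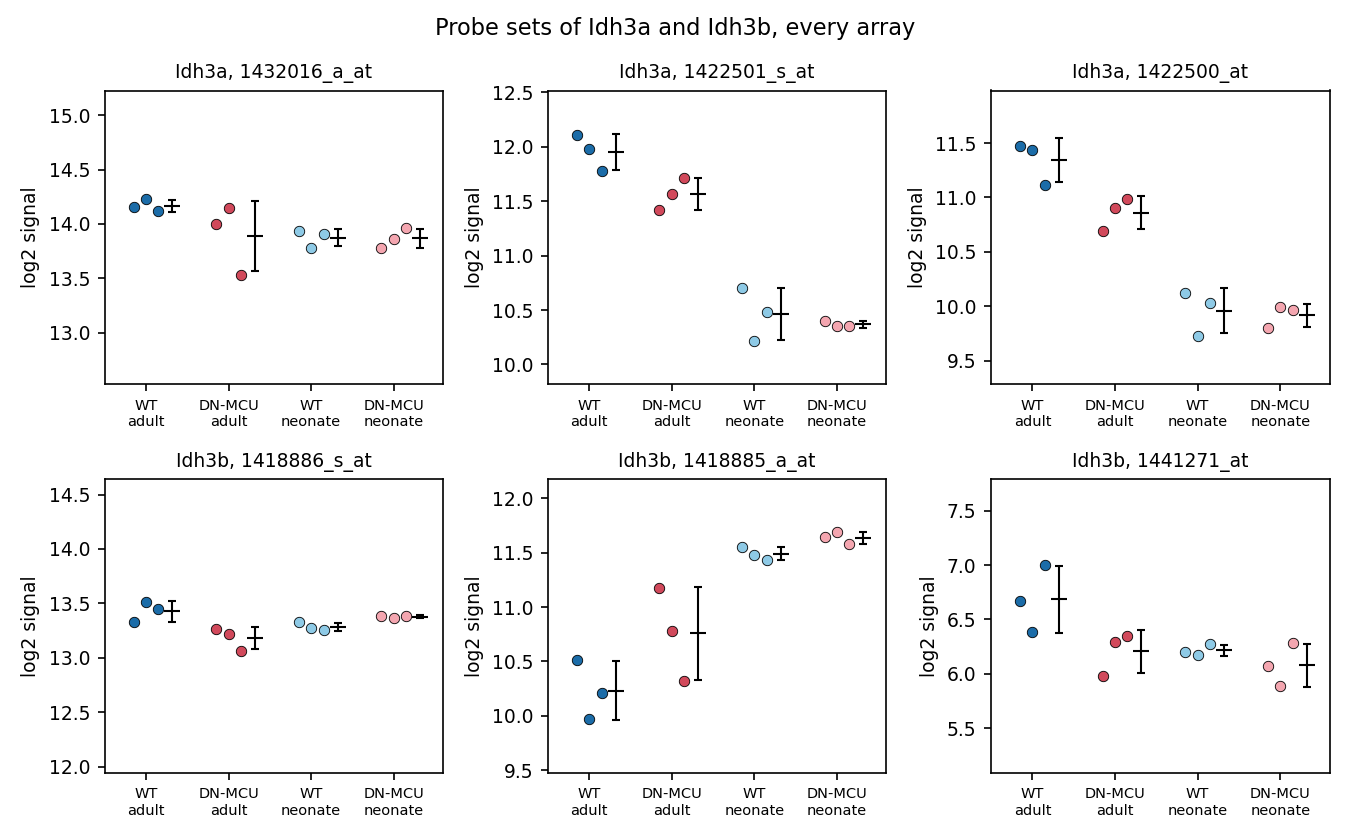
Log2 signal on every array for the 3 probe sets each of Idh3a (top) and Idh3b (bottom) that passed the filter, with the group mean and SD beside the points (n = 3). Each panel spans the same log2 range around its own level, so sizes of change can be compared, not heights. Idh3b 1418885_a_at is the only probe set of these that passed as lower in adults, and it did so in both genotypes.

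The 2-oxoglutarate dehydrogenase complex was read through its decarboxylating component Ogdh and its core Dlst. Ogdh read 12.81, 12.63 and 12.85 in WT adults and 12.22, 12.40 and 12.77 in DN-MCU adults. Arrays DN-MCU adult 1 and 2 were below the WT range and the third was inside it, and the difference was -0.30 (SE 0.17, 95% interval -0.67 to 0.07, adjusted p = 0.387), or -0.45 (adjusted p = 0.0808) without the third. Dlst read 13.07, 12.99 and 12.91 in WT and 12.26, 12.60 and 12.89 in DN-MCU. Array DN-MCU adult 3 was again the nearest to WT, and the groups did not overlap (-0.41, SE 0.16, adjusted p = 0.214). Of the 3 other Dlst probe sets, 2 were below 0 and 1 above, from -0.42 to 0.05.

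Succinyl-CoA ligase pairs the alpha subunit Suclg1 with Sucla2 in its ATP-forming type. Sucla2 had the widest spread of the members: 13.57, 14.36 and 14.30 in WT adults and 13.97, 14.25 and 12.60 in DN-MCU adults, an SD of 0.44 and 0.88 where the median SD of the members was 0.08 and 0.13. The low arrays were WT adult 1 and DN-MCU adult 3, the groups overlapped, and the interval of the difference, -1.29 to 0.34, allows both a fall and a rise. Suclg1 varied little, at 13.67, 13.67 and 13.52 in WT and 13.29, 13.36 and 13.43 in DN-MCU. All 3 DN-MCU arrays were below all WT arrays, by -0.26 in the mean (SE 0.11, 95% interval -0.52 to -0.01, adjusted p = 0.255). Mdh2, which closes the cycle by oxidizing malate, read 15.17, 15.02 and 15.05 in WT and 15.02, 14.99 and 14.87 in DN-MCU. Its groups met at 15.02 without crossing, with a difference of -0.12 (SE 0.12, adjusted p = 0.643), and its second probe set gave -0.02.

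**Figure D3:**
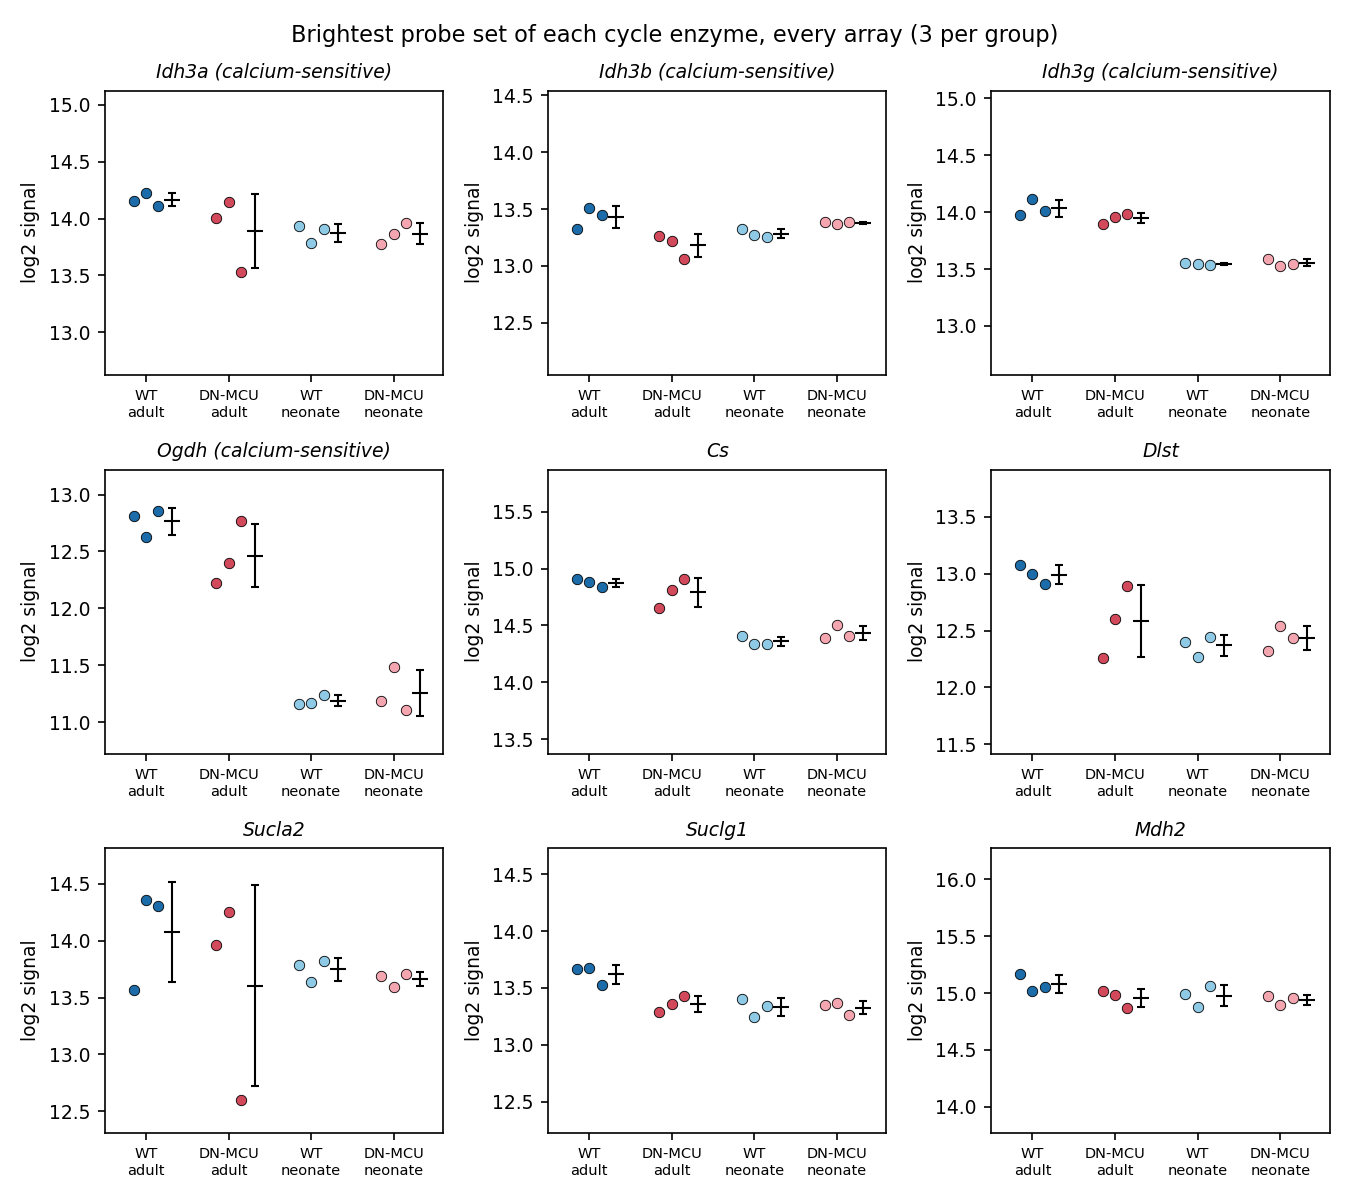
Log2 signal of the brightest probe set of each of the 9 members on all 12 arrays, with the group mean and SD beside the points (n = 3). All panels span the same log2 range around their own level: Ogdh shows the largest step between neonates and adults, and Sucla2 the widest scatter among adults.

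In neonatal hearts the enzymes lay close to their WT level. By limma 0 of the 9 passed, where 0.0254% of all genes did (3 of 11807). An unadjusted p under 0.05 was found for 0 of the 9 and for 285 of all 11807 genes. Differences ran from -0.09 (Sucla2) to 0.09 (Idh3b), with a median of 0.01, 5 above 0 and 4 below. Cs read 14.41, 14.34 and 14.34 in WT and 14.39, 14.50 and 14.40 in DN-MCU neonates, Ogdh 11.16, 11.16 and 11.24 against 11.18, 11.48 and 11.10. Both overlapped. Idh3b, at 13.33, 13.27 and 13.25 in WT and 13.38, 13.37 and 13.38 in DN-MCU, was the 1 member without overlap (13.9% of all genes), and its difference was 0.09 (SE 0.11, adjusted p = 1). For 8 of the 9 members the 95% interval stayed within -0.36 to 0.43, and for Sucla2 it was -0.90 to 0.73.

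The DN-MCU difference itself was then compared between ages. It was more negative in adults for all 9 members, from -0.47 (Dlst) to -0.09 (Mdh2). However, by limma 0 of 9 passed (0.949% of all genes did), and the smallest adjusted p was 0.571. An unadjusted p under 0.05 was found for 0 of 9 and for 1160 of all 11807 genes.

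Between ages in WT hearts, 4 of the 9 enzymes rose: Ogdh, Dlst, Cs and Idh3g. This share has to be read against a background of 45% of all genes that differed between these ages, and 17.2% of all genes that were higher in adults. All 9 were above 0, from 0.10 (Mdh2) to 1.58 (Ogdh), with a median of 0.33 where that of all genes was -0.16. Adult and neonatal arrays did not overlap for 6 of 9, each higher in adults (67.1% of all genes did not overlap, 25.6% being higher). Subtracting array medians shifts the age differences of all probe sets by a median of -0.13 in WT and -0.15 in DN-MCU, and on that scale the 4 WT calls were also made and Mdh2 was at -0.03.

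Ogdh had the largest step, from 11.16, 11.16 and 11.24 in WT neonates to 12.81, 12.63 and 12.85 in WT adults, a 2.98-fold rise (log2 1.58, SE 0.17, 95% interval 1.21 to 1.94, adjusted p = 2.9e-05). Its second probe set, 1445632_at, rose by 1.504 (SE 0.25, adjusted p = 0.000727). Its partner Dlst rose from 12.40, 12.27 and 12.45 to 13.07, 12.99 and 12.91, which is 1.54-fold (log2 0.62, SE 0.16, adjusted p = 0.00997). Both components of the complex were higher on all 3 WT adult arrays than on any WT neonatal one. Another Dlst probe set, 1437775_at, went from 3.47, 3.67 and 3.61 to 7.29, 7.45 and 7.38 (3.79, adjusted p = 8.61e-07). Its neonatal values are close to the filter level of 3.35, so the size of that step is poorly measured.

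Cs rose from 14.41, 14.34 and 14.34 in WT neonates to 14.91, 14.88 and 14.84 in WT adults, 1.43-fold (log2 0.51, SE 0.12, adjusted p = 0.00424). Its other probe sets gave 0.55 and 0.59, and both passed. Idh3g rose from 13.55, 13.54 and 13.54 to 13.97, 14.12 and 14.01, 1.40-fold (log2 0.49, SE 0.11, adjusted p = 0.00372). The 3 WT neonatal arrays had an SD of 0.01 for Idh3g, and the sex of the neonates, which could matter for an X-linked gene, is not given. The second Idh3g probe set was at 0.27 and did not pass (adjusted p = 0.0892).

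By their brightest probe sets the other 5 members did not pass between WT ages. Suclg1, at 13.40, 13.25 and 13.34 in neonates, was 0.29 higher in adults without overlap (SE 0.11, 95% interval 0.04 to 0.54, adjusted p = 0.0612). Idh3a, at 13.93, 13.78 and 13.91 in neonates, was 0.29 higher, also without overlap (SE 0.16, adjusted p = 0.168). The remaining differences were 0.33 for Sucla2 (SE 0.37), 0.14 for Idh3b (SE 0.11) and 0.10 for Mdh2 (SE 0.12), each with overlap. The second Mdh2 probe set, 1416478_a_at, rose by 0.36 without overlap (SE 0.12, adjusted p = 0.0303). Its adjusted p ran from 0.00565 to 0.0855 over single arrays left out. Without array DN-MCU adult 3, whose spread enters the shared error, 6 of 9 rose, with Idh3a and Suclg1 added, and 22% of all genes were higher.

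For Idh3a and Idh3b, too, the age difference depended on the probe set. The dimmer Idh3a probe sets rose with age in WT, 1422501_s_at from 10.70, 10.22 and 10.48 to 12.11, 11.98 and 11.78 (1.49, SE 0.16, adjusted p = 2.76e-05) and 1422500_at by 1.39 (adjusted p = 5.52e-05), where the brightest, 1432016_a_at, was at 0.29. Idh3b 1418885_a_at fell, from 11.55, 11.48 and 11.43 in WT neonates to 10.51, 9.97 and 10.21 in WT adults (-1.26, SE 0.21, adjusted p = 0.000662). Its 2 companions were at 0.14 and 0.47 and did not pass. Over the 21 member probe sets 12 rose and 1 fell in WT, against 20.6% and 24.4% of all probe sets.

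**Figure D4:**
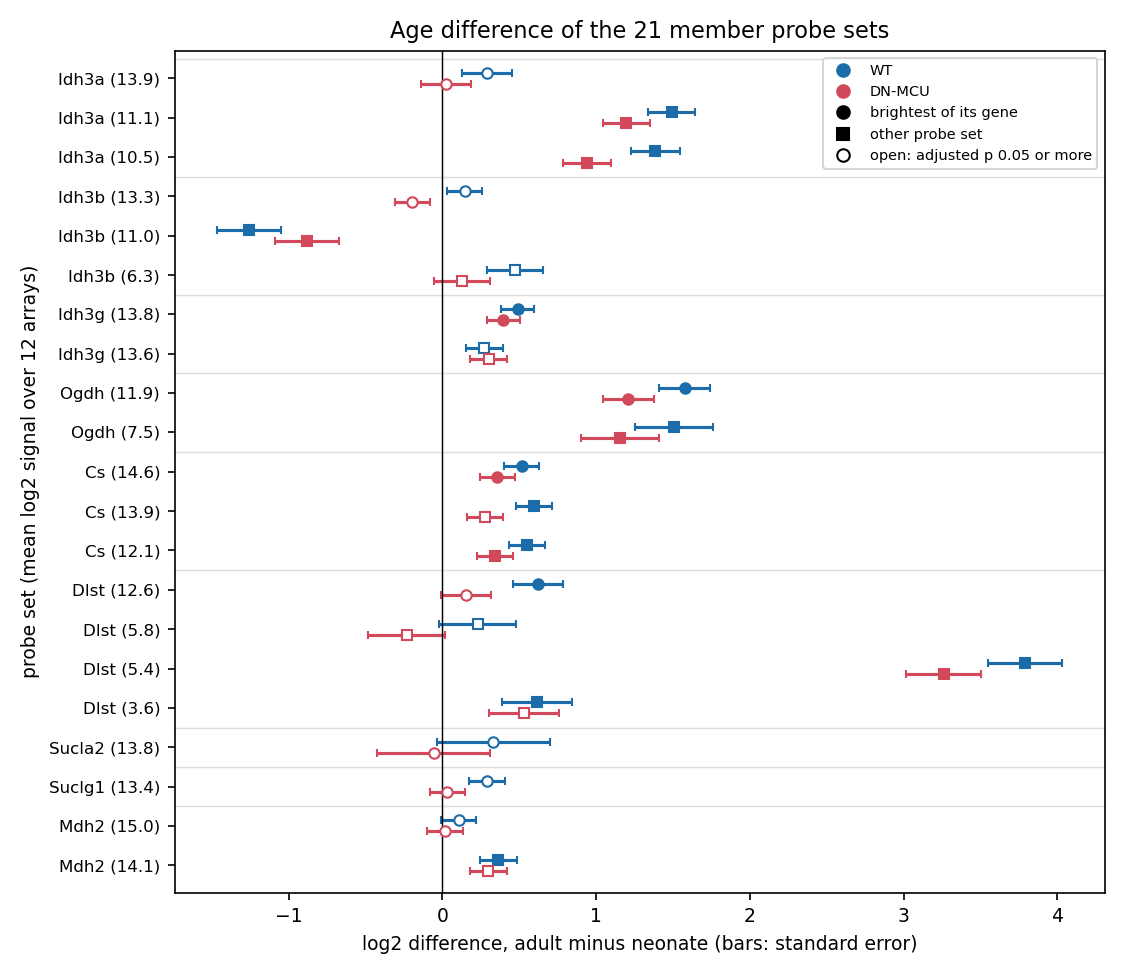
Log2 difference between adults and neonates for each of the 21 member probe sets in WT (blue) and DN-MCU (red), with standard errors; the number beside each gene is the mean log2 signal of that probe set. Filled symbols passed at an adjusted p under 0.05; Ogdh probe sets lie at 1.16 to 1.58, one Dlst probe set lies at 3.26 and 3.79, and one Idh3b probe set lies below 0 in both genotypes.

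In DN-MCU hearts 3 of the 9 enzymes rose with age, Ogdh, Idh3g and Cs, with 46.7% of all genes differing and 17.6% higher. Ogdh went from 11.18, 11.48 and 11.10 to 12.22, 12.40 and 12.77 (1.21, SE 0.17, adjusted p = 0.00019). Idh3g went from 13.59, 13.53 and 13.55 to 13.90, 13.96 and 13.99 (0.39, SE 0.11, adjusted p = 0.0123). Every adult value of both genes was above every neonatal one. Cs rose by 0.36 (SE 0.12, adjusted p = 0.0272), a call that was lost when same-numbered neonates were paired (adjusted p = 0.0575, 40.9% of all genes called). It was also lost without DN-MCU adult 2, DN-MCU neonate 1 or DN-MCU neonate 3, with an adjusted p of up to 0.0847 over single arrays left out. In a fit of the DN-MCU arrays alone (33.5% called) Ogdh was the 1 member that passed. The median of the 9 was 0.03 (all genes -0.17), and 4 of 9 did not overlap (56.8% of all genes). Of these, Ogdh, Idh3g and Cs were higher in adults, and Idh3b was lower (-0.20, SE 0.11, adjusted p = 0.181). Dlst, at 12.32, 12.54 and 12.44 in neonates, differed by 0.15 (SE 0.16, adjusted p = 0.469). Idh3b 1418885_a_at fell here too (-0.88, SE 0.21, adjusted p = 0.00596). The dimmer Idh3a probe sets rose, 1422501_s_at by 1.20 (adjusted p = 0.000132) and 1422500_at by 0.94 (adjusted p = 0.000779). Dlst 1437775_at, near the filter level in neonates, rose by 3.26 (adjusted p = 2.63e-06). Over the 21 member probe sets 8 rose and 1 fell, where 4906 and 6222 of all 24176 probe sets did. By its brightest probe set Dlst passed in WT and not in DN-MCU. The test of that difference, which is the comparison of DN-MCU effects between ages, did not pass (-0.47, SE 0.23, adjusted p = 0.594). With array medians subtracted Ogdh was the 1 member that rose with age in DN-MCU hearts, and Idh3b fell (-0.35, adjusted p = 0.0322), with 50.1% of all genes differing.

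The calcium-sensitive dehydrogenases were set beside the other 5 members on each array, as the mean of Idh3a, Idh3b, Idh3g and Ogdh minus the mean of Cs, Dlst, Sucla2, Suclg1 and Mdh2. The level of this difference depends on the probes, so its change between groups is what can be read. The WT adults had -0.51, -0.57 and -0.52 and the DN-MCU adults -0.49, -0.57 and -0.40, with overlapping groups and means of -0.53 ± 0.03 and -0.49 ± 0.08 (SD, n = 3). The WT neonates had -0.80, -0.73 and -0.82 and the DN-MCU neonates -0.76, -0.72 and -0.76, with means of -0.79 ± 0.04 and -0.75 ± 0.02. The DN-MCU groups differed from WT by 0.04 at either age, and at both ages the arrays of the groups overlapped. The adult value ran from 0.0015 without DN-MCU adult 3 to 0.085 without DN-MCU adult 2, and the neonatal one from 0.023 without WT neonate 3 to 0.065 without WT neonate 2. Within the same-numbered neonatal pairs the differences were 0.040, 0.015 and 0.062, all of one sign. No test was made of a score over chosen members.

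Between ages the class difference moved by 0.25 in WT and 0.26 in DN-MCU, towards the calcium-sensitive genes, and no adult array overlapped a neonatal one. That step rested on Ogdh. Averaging the 3 Idh3 subunits alone gave a WT step of -0.06 and a DN-MCU step of -0.03, and the arrays of both ages overlapped. Between adult genotypes this Idh3 score did not overlap, at -0.262, -0.235 and -0.268 in WT and -0.117, -0.228 and -0.215 in DN-MCU. The adult step was 0.068. In neonates it was 0.030, with overlap. No test was made of this score either. Within the calcium-sensitive class the WT age difference ran from 0.14 (Idh3b) to 1.58 (Ogdh), with 2 of 4 passing. The other members ran from 0.10 (Mdh2) to 0.62 (Dlst), with 2 of 5 passing. Among all genes, 45% passed between WT ages and 17.2% were higher in adults. In the adult genotype comparison the medians of the classes were -0.26 each, with 0 of 4 and 0 of 5 passing, where 5.11% of all genes did.

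**Figure D5:**
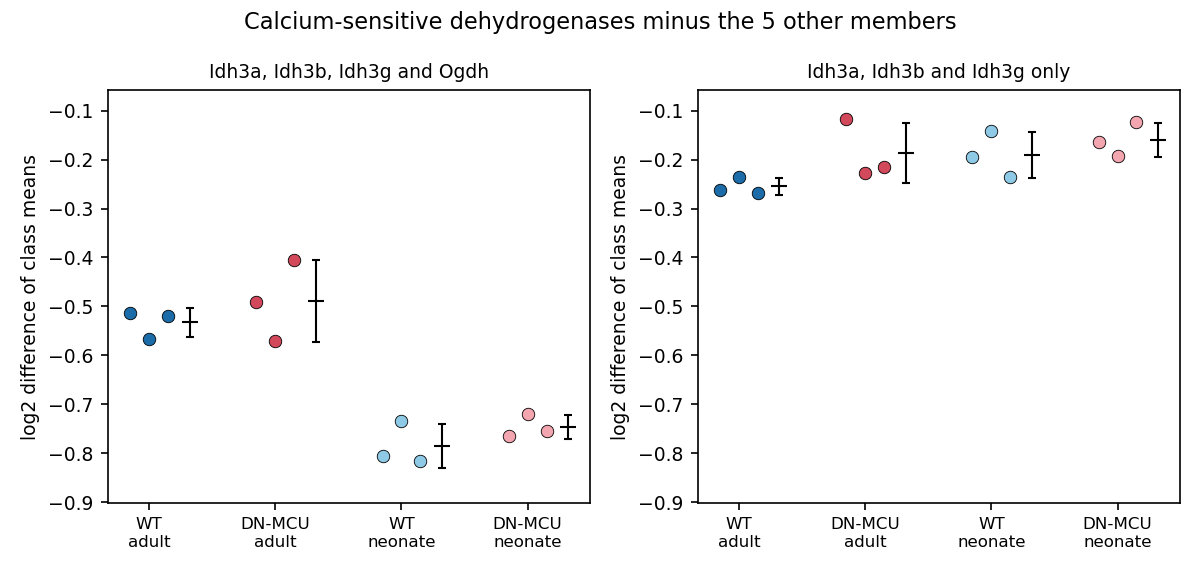
Mean log2 signal of the calcium-sensitive genes minus that of the 5 other members on each array, with the group mean and SD (n = 3): with Ogdh on the left, with the Idh3 subunits alone on the right. On the left the adult arrays (-0.57 to -0.40) lie above the neonatal arrays (-0.82 to -0.72) in both genotypes. On the right the ages overlap within each genotype, and the DN-MCU adults (-0.228 to -0.117) lie above the WT adults (-0.268 to -0.235).

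The rest of the pathway, 10 measured mitochondrial genes and 4 cytosolic counterparts, was read in the same way. In adult hearts 0 of these 14 passed between DN-MCU and WT (5.11% of all genes did), 13 were below 0 and the median was -0.38. Idh1, cytosolic NADP-dependent isocitrate dehydrogenase, came nearest: 10.81, 10.97 and 10.89 in WT and 10.40, 10.57 and 10.21 in DN-MCU (-0.50, SE 0.13, adjusted p = 0.0647). Idh2, its mitochondrial form, differed by -0.41 (adjusted p = 0.0953), the succinate dehydrogenase subunits Sdhd by -0.36 (adjusted p = 0.0976) and Sdhc by -0.42 (adjusted p = 0.154). Dld, which the 2-oxoglutarate dehydrogenase complex shares with pyruvate dehydrogenase, had the largest difference of these genes, -0.80, with an interval of -1.65 to 0.05. Without array DN-MCU adult 3 and WT adult 1 together, a choice made after seeing the data, 7 of the 14 fell (Idh2, Dld, Suclg2, Sdhd, Dhtkd1, Mrps36 and Idh1) and 1 of the 9 members, Dlst (-0.52, adjusted p = 0.0446), in a fit in which 6.72% of all genes were lower.

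One probe set of this wider list did pass. Mdh1 1438338_at, of cytosolic malate dehydrogenase, read 6.98, 6.10 and 6.68 in WT adults and 4.56, 4.44 and 4.42 in DN-MCU adults, and it fell (-2.11, SE 0.22, adjusted p = 0.000432). The other 3 Mdh1 probe sets differed by -0.25 to -0.10 and did not pass. In neonates 1438338_at was near the filter level, at 3.63, 3.79 and 3.88 in WT and 3.31, 3.78 and 3.77 in DN-MCU. In the neonatal comparison 0 of the 14 genes passed (0.0254% of all genes did), and their median was 0.02.

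Between WT ages 5 of the 14 rose, Sdha (0.61), Sdhb (0.56), Dhtkd1 (0.99), Mrps36 (0.74) and Idh1 (0.75). Of all genes, 17.2% were higher in WT adults. Dhtkd1 was not called with same-numbered neonates paired (adjusted p = 0.0583), nor without WT adult 2 (0.0508), WT adult 3 (0.55, adjusted p = 0.0639), WT neonate 1 (0.0805) or WT neonate 3 (0.082). Acly, which makes cytosolic acetyl-CoA from citrate, fell (-0.64, adjusted p = 0.0212), where 27.8% of all genes were lower in WT adults. Over single arrays left out, the limma adjusted p reached 0.0904 for Sdha, 0.0537 for Mrps36 and 0.0875 for Acly, so these calls were lost in some fits. Those of Sdhb and Idh1 were kept throughout. In DN-MCU hearts Sdhb rose (0.41) and Idh2 (-0.46), Sdhd (-0.35) and Acly (-0.80) fell. Of all genes, 17.6% were higher and 29.1% lower in DN-MCU adults. With single arrays left out, the limma adjusted p here reached 0.0648 for Sdhb and 0.0677 for Sdhd, while the calls of Idh2 and Acly were kept.

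Genes with a profile most like the mean of the 9 members were found by the root mean square distance between log2 profiles over the 12 arrays, each centred on its own mean, among 11734 genes. The nearest outside the lists were Atp5a1 (0.056) and Atp5b (0.078), subunits of ATP synthase, Ndufc1 (0.072) of complex I, and Tmem126a (0.081). The members themselves lay between 0.094 (Idh3g) and 0.55 (Ogdh), since Ogdh moved more with age than the mean did and Sucla2, at 0.39, scattered more among adults.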

How the data were processed

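The authors deposited 1 table of log2 signals, which were used as they stand (array medians 3.41 to 3.46 in adults and 3.24 to 3.33 in neonates); the log2 scale was inferred from their range, and no source used here names the algorithm. Total RNA was labelled as biotinylated cRNA, per the labels' protocols, and the submitters' processing notes list Partek, giving neither version nor role. Of 45101 probe sets, 64 controls were removed, and the filter kept the 24176 that lay above log2 3.35, the median over the whole table, on at least 3 of the 12 arrays. Probe sets were named from the platform's annotation, and each gene was represented by its brightest probe set past the filter. Group means of the 12 arrays were fitted with limma 3.58.1 (lmFit, eBayes) in R 4.3.3, with Benjamini-Hochberg adjustment within each comparison over all 24176 probe sets. The scripts were tested on simulated data.

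Named were all 9 members with their other probe sets, the genes of the wider pathway list called in a comparison or with the largest differences, the 4 nearest profiles, and Mcu. Members and lists were chosen with earlier results of these data known. Ogdhl, on the wider list, was not analysed here. Same-numbered neonatal arrays deviated together (correlations 0.13, 0.22 and 0.28) and met the rule for pairs; an alternative has their replicate number as a block. Same-numbered adult arrays (-0.38, 0.41 and -0.43) did not meet it, and a block at both ages was run as a further alternative. The adult sample names carry CC13 (WT adult 1 and DN-MCU adult 1) or CC17 (the other adults), and what these names mark was not determined. An alternative with the name as an adult block called the same members in each comparison as the reported fit. Alternatives covered scaling, filters, blocks, array weights, the prior spread, the gene summary and each array left out. With 3 arrays per group, precision is limited by their number, and p-values measure the spread between these animals.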

Additional observations from a re-analysis of the deposited data

Results flagged for a closer look

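The effect of DN-MCU on Mdh1 1438338_at differed between adults and neonates by the test of the difference itself (-1.96, SE 0.31, adjusted p = 0.0182 by limma): its DN-MCU difference was -2.11 in adults (called) and its signal was near the filter level in all neonates. The call was lost when same-numbered neonates were paired (adjusted p = 0.0574), when both ages were paired (0.079) or without WT adult 3 (0.0569), WT neonate 1 (0.0685), 2 (0.0559) or 3 (0.0521), or DN-MCU neonate 2 (0.0584) or 3 (0.0628), and its adjusted p over single arrays left out ran from 0.0065 to 0.0685.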

How the results depend on the processing

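No value that passed in the reported fit changed direction under any alternative run. In adults, 0 of the 9 members passed between genotypes under each alternative with all arrays, and 0 to 1 with single arrays left out. There the wider list of 14 went from 0 to 3 with no filter, 3 with a trend in the prior spread, 1 with array weights, 2 with the mean of a gene's probe sets, 7 without DN-MCU adult 3 and WT adult 1 (members 1), and 0 to 2 over single arrays left out; the same list had 1 for the difference of effects between ages with no filter. Between WT ages the members numbered 8 with array weights, 7 without both arrays and 4 to 6 over single arrays, and the wider list 3 to 6. In DN-MCU hearts the members were 1 with the groups alone, 6 with the mean of probe sets and 2 to 3 over single arrays. There the wider list had 1 with the groups alone, 8 without both arrays and 2 to 6 over single arrays. The share of all genes called also differed between fits. Between DN-MCU ages it was 46.7% in the reported fit, 33.5% with the groups alone and 50.1% with array medians subtracted. For most other alternatives that share is not given here, so these counts are not results about the members.

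With the replicate number as a block at both ages, the DN-MCU age comparison held 1 member and 2 of the wider list; the neonatal block ended the Cs call there and no other call of a member's brightest probe set.

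The class difference with Dlst moved to Ogdh's class was -0.0266 between adult genotypes, -0.085 for the difference of effects and 0.31 between WT ages. With the mean of probe sets it was -0.0016 between neonatal genotypes, 0.060 for the difference of effects and 0.15 between WT ages. Without Ogdh it was -0.0644 between WT ages and -0.0265 between DN-MCU ages. In that setting it was 0.068 between adult genotypes, without overlap, 0.030 between neonatal genotypes and 0.038 for the difference of effects.

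Small differences that did not pass changed sign. Between neonatal genotypes these were Idh3a (0.019) and Suclg1 (0.020) with array medians subtracted, Idh3g with quantile normalization (-0.012), Dlst with array weights (-0.0047) and Mdh2 with the mean of probe sets (0.0069). Between WT ages they were Idh3b with the mean of probe sets (-0.21) and Mdh2 with array medians (-0.026). Between DN-MCU ages they were Idh3a (-0.13), Suclg1 (-0.12) and Mdh2 (-0.13) with array medians, Mdh2 with quantile normalization (-0.059), Sucla2 (0.37) and Suclg1 (-0.0087) with array weights, and Dlst (-0.0028), Sucla2 (0.44, which then passed, adjusted p = 0.00971) and Suclg1 (-0.0029) without both arrays. Over single arrays left out, Sucla2 ran from -0.79 to 0.030 between adult genotypes, where DN-MCU adult 3 sets its sign. Between neonatal genotypes Idh3a ran from -0.053 to 0.037, Idh3g from -0.0076 to 0.022, Ogdh from -0.0455 to 0.14, Suclg1 from -0.04745 to 0.03145 and Mdh2 from -0.083 to 0.00775. Between DN-MCU ages Idh3a ran from -0.10 to 0.21, Dlst from -0.0028 to 0.31, Sucla2 from -0.38 to 0.44, Suclg1 from -0.0029 to 0.0665 and Mdh2 from -0.014 to 0.059. The cause was not tested. Signals near the filter level, such as Dlst 1437775_at and Mdh1 1438338_at in neonates, measure size least well.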

Other observations

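Sucla2 was lowest on WT adult 1 among the WT adults and on DN-MCU adult 3 among the DN-MCU adults, and so were 6 of the 23 members and pathway genes in all (Idh3b, Sucla2, Dld, Suclg2, Sdha and Idh1). Dld read 11.64, 12.47 and 12.52 in WT adults and 11.68, 12.15 and 10.40 in DN-MCU adults, and Suclg2, the partner of Suclg1 in the GTP-forming succinyl-CoA ligase, read 11.59, 12.10 and 12.23 against 11.73, 11.81 and 10.90. On DN-MCU adult 3, by contrast, Cs, Idh3g, Ogdh, Dlst and Suclg1 were the highest of their group. These genes were singled out after their values were seen. Adipocyte markers averaged 8.74 on WT adult 1, the highest of the WT adults, and 6.72 on DN-MCU adult 3, the lowest of all adults.

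The 3′ minus 5′ difference of the beta-actin control probe sets, a measure of RNA integrity and labelling length, was 0.77 to 0.90 in adults and 1.03 to 1.56 in neonates, so it moved with age as the age differences of the members did, and its part in them was not tested. The same difference for Gapdh overlapped between ages, at -0.57 to -0.38 in adults, with DN-MCU adult 3 the highest of them, and -0.53 to -0.18 in neonates. Between genotypes beta-actin gave 0.79, 0.89 and 0.86 in WT adults and 0.77, 0.90 and 0.84 in DN-MCU adults, and 1.07, 1.503 and 1.03 in WT neonates and 1.43, 1.56 and 1.28 in DN-MCU neonates. The groups overlapped at both ages, and in neonates DN-MCU was the higher of each same-numbered pair.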
